A study of Mus musculus with 9 samples.

Results

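The insulin-like growth factor (IGF) system of the mouse ovary was followed through 9 transcripts: the ligand Igf1, its receptor Igf1r, the binding proteins Igfbp2, Igfbp3, Igfbp4, Igfbp5, Igfbp6 and Igfbp7, and the protease Pappa. They were chosen by name among the 22544 entries of the deposited expression table, and all 9 were present. Their Ensembl identifiers are ENSMUSG00000020053 (Igf1, chromosome 10), ENSMUSG00000005533 (Igf1r, chromosome 7), ENSMUSG00000039323 (Igfbp2, chromosome 1), ENSMUSG00000020427 (Igfbp3, chromosome 11), ENSMUSG00000017493 (Igfbp4, chromosome 11), ENSMUSG00000026185 (Igfbp5, chromosome 1), ENSMUSG00000023046 (Igfbp6, chromosome 15), ENSMUSG00000036256 (Igfbp7, chromosome 5) and ENSMUSG00000028370 (Pappa, chromosome 4). Whole ovary was profiled in 9 libraries of polyadenylated RNA, 3 in each of 3 groups. The labels of the HBOT libraries name HBOT alone, while the design text of the series describes that group as CTX with HBOT, hyperbaric oxygen, and it is read so here, CTX being the usual abbreviation of the alkylating chemotherapy drug cyclophosphamide. The CTX libraries are labelled with the drug alone, and the labels of the NC libraries name neither treatment. The sources used here do not give the strain, age, dose or time, or how many animals a library holds, so the spread between replicates may be technical in part.

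The IGF ligands act through a receptor tyrosine kinase that signals to the PI3K and MAPK pathways. Most of the ligand outside cells is held by IGF binding proteins, which block or prolong its action. Pappalysin-1, the product of Pappa, cuts IGFBP4 and so releases the ligand. In rodents Igf1 is made by granulosa cells of growing follicles, where it adds to the response to follicle-stimulating hormone.

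Expression is given in FPKM, fragments per length of transcript and per size of the library, which lets levels of different genes be set side by side. Fold changes are differences of log2(FPKM + 1), fitted with limma over all 13338 entries that reached 1 FPKM in at least 3 libraries, and understate the change of genes with low values. All 9 members passed that filter, Pappa with 5 of 9 libraries at 1 FPKM or more and the others with 9 of 9. FPKM hold no counts, so the depth behind a value is unknown. HBOT replicate 2 stood apart, with 1637 entries differing by over 1 log2 unit from the average of the remaining 8, against 173 to 347 in any other library, and 9 genes of the ovulatory response summed to 1100 FPKM in it, against 2.73 to 5.52 FPKM elsewhere. CTX replicate 1 held transcripts of fat, with the adipocyte hormone Adipoq at 5.24 FPKM and at 0 in the other 8 libraries, and an adipocyte list of 6 genes summing to 84.5 FPKM in it, against 4.34 to 22 FPKM in the others. Markers of the ovary were present throughout, as the 15 genes of the granulosa list summed to between 2150 and 3500 FPKM and the 9 genes of the oocyte list to between 123 and 323 FPKM.

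The promoters of Igfbp4, Igfbp7 and Igfbp2 are shown because these are the members for which the libraries of at least 1 pair of groups did not overlap. The sequences are RefSeq's, on GRCm38.p6, each 250 bases before to 50 bases after an annotated start and read 5′ to 3′ on the strand of the gene. The submitters' processing notes name GRCm39 for the expression values, and no coordinates were converted. Capitals mark the GC box, GGGCGG on either strand, and the TATA box, TATAAA on either strand, which do not overlap in these windows. Igfbp4 lies at chr11:99040994-99041293 on the plus strand, Igfbp7 at chr5:77407996-77408295 on the minus strand, and the more upstream of 2 starts of Igfbp2 at chr1:72824230-72824529 on the plus strand.
Igfbp4: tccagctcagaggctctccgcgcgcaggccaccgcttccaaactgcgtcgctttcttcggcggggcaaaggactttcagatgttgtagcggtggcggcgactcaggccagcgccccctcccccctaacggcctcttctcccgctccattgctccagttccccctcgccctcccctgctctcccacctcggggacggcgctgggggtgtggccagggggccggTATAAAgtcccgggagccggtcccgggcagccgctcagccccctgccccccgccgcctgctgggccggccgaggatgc
Igfbp7: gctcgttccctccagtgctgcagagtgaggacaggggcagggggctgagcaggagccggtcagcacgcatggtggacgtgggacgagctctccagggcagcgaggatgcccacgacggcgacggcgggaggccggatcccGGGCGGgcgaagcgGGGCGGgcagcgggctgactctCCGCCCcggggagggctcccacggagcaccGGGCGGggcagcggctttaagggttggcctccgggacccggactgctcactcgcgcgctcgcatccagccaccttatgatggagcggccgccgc
Igfbp2: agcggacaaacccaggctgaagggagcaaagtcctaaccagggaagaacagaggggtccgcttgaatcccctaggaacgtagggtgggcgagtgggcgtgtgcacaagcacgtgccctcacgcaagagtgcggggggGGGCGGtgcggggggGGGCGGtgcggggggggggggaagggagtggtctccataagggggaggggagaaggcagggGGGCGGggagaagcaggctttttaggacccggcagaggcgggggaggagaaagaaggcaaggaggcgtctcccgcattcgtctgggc
The Igfbp4 window held 1 TATA box, which began at -28 from the start and is found in 13.6% of the 32851 windows of this length in the table. The Igfbp7 window held 4 GC boxes and the Igfbp2 window 3, a motif present in 35.7% of all windows. The windows were rich in G and C, at 71.3% for Igfbp4, 73.3% for Igfbp7 and 67.0% for Igfbp2, against a median of 52.7%. The cAMP response element TGACGTCA, the AP-1 site TGANTCA and the full palindromic oestrogen response element, sought on both strands and present in 1.79%, 7.81% and 0.07% of all windows, had 0 matches in these 3 windows, which says only that those letters are not there. The window at the other start of Igfbp2, not shown, held 1 AP-1 site at -39 and 0 GC boxes, with 57.3% G and C. Which start is used in these libraries was not tested. Windows were found for 8 of the 9 members.

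The members spanned a wide range of levels, with the highest and the 2 lowest the same in every library. Igfbp7, which binds IGF weakly and is known as a protein of vessel walls and stroma, was the highest of the 9 members in all 9 libraries, at 307 to 478 FPKM. Igfbp4 (mean of 9 libraries 72.0 FPKM), Igfbp5 (66.0), Igfbp2 (55.0) and Igfbp6 (46.7) formed the middle, and exchanged places among ranks 2 to 6. Igf1 at a mean of 23.3 FPKM and Igf1r at 20.8 FPKM followed, then Igfbp3 at 7.58 FPKM, eighth in 9 of 9 libraries, and Pappa at 1.61 FPKM, last in 9 of 9. Neighbours within the middle, and Igf1 with Igf1r, had overlapping ranges over the libraries. Igfbp7 lay above the range of every other member and Igfbp3 below those of Igf1 and Igf1r, while the ranges of Igfbp3 and Pappa met only through Pappa in HBOT replicate 2.

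**Figure D1:**
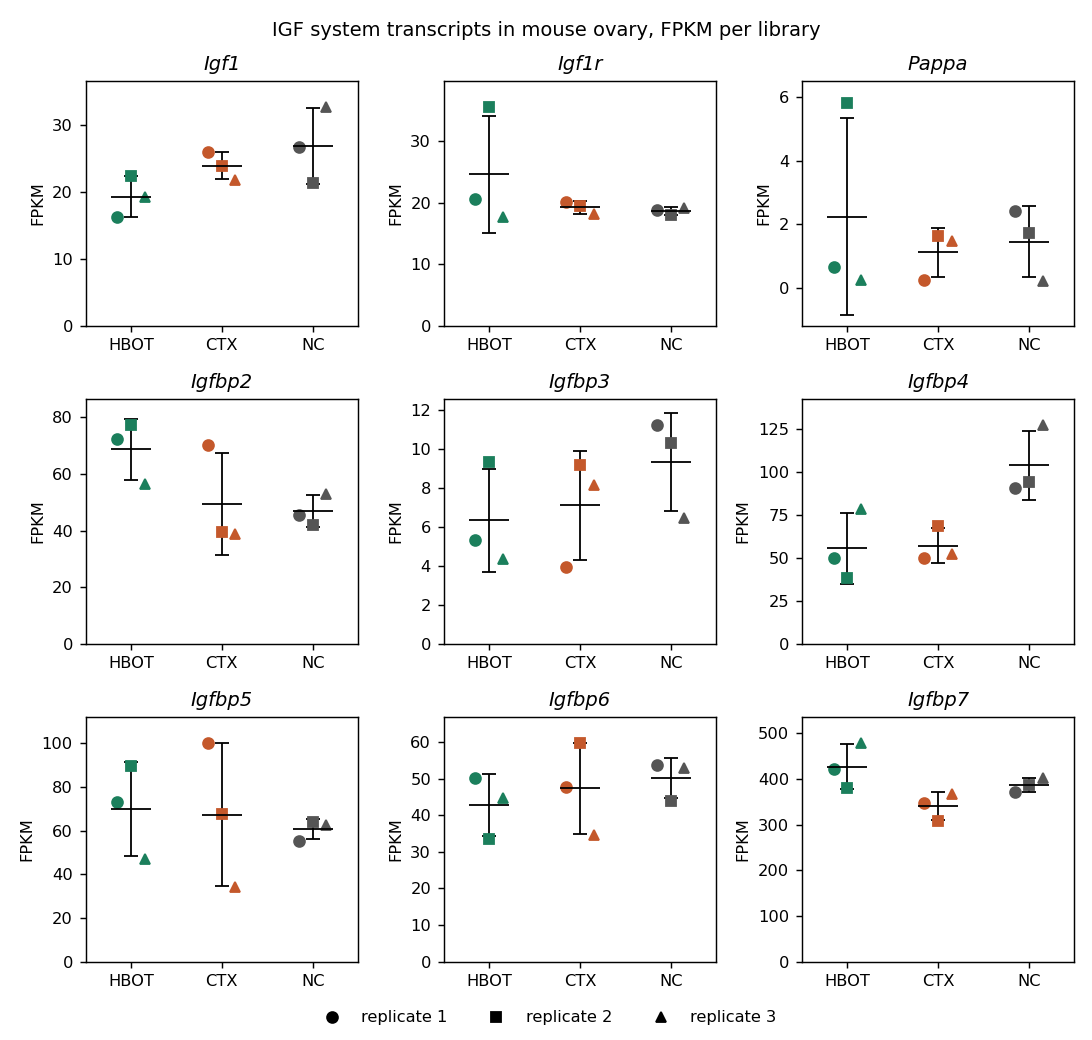
FPKM of the 9 members (y axes, linear) in each library by group (x axes), with replicates 1, 2 and 3 as circle, square and triangle, and the group mean and SD (n = 3) as line and bars. The Igfbp4 panel shows the 3 NC libraries, at 90.7 to 127 FPKM, above the HBOT and CTX libraries, and the Igf1r and Pappa panels show HBOT replicate 2 alone at the top.

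Igf1, the ligand, had its lowest mean in HBOT. It stood at 16.2, 22.4 and 19.2 FPKM in HBOT, at 25.9, 23.9 and 21.8 FPKM in CTX, and at 26.6, 21.3 and 32.6 FPKM in NC. HBOT replicates 1 and 3 were below every CTX and NC library, while HBOT replicate 2 lay among them, so the groups overlapped. The fold change was -0.45 for HBOT against NC (SE 0.17, interval -0.84 to -0.06, unadjusted p = 0.0291, adjusted p = 0.385), -0.30 for HBOT against CTX (SE 0.17, interval -0.70 to 0.09, adjusted p = 0.710) and -0.15 for CTX against NC (SE 0.17, adjusted p = 0.916). With 1 library left out, the value for HBOT against NC ran between -0.60 without NC replicate 2 and -0.30 without NC replicate 3, and was -0.34 without HBOT replicate 1. That for HBOT against CTX was -0.19 without HBOT replicate 1, and that for CTX against NC was -0.00091 without NC replicate 3, the highest of the NC libraries. Igf1 overlaps the antisense gene Igf1os in the GENCODE annotation of GRCm38. Whether strand was used in counting was not given in the sources used here, and without it the reads of both cannot be told apart.

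Igf1r, the receptor that carries the signal, was nearly flat outside 1 library. It was at 20.6, 35.5 and 17.7 FPKM in HBOT, at 20.1, 19.4 and 18.1 FPKM in CTX, and at 18.8, 17.9 and 19.1 FPKM in NC. HBOT replicate 2 was 1.87 times the mean of the other 8 libraries, which ranged from 17.7 to 20.6 FPKM. The fold change of 0.28 for HBOT against CTX (SE 0.22, adjusted p = 0.717) was -0.005 without that library, and that of 0.32 for HBOT against NC (SE 0.22, adjusted p = 0.549) was 0.04 without it.

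Igfbp4, the binding protein that pappalysin-1 cuts and that withholds ligand from the receptor, was the member with the smallest p in both comparisons with NC. It stood at 49.7, 38.3 and 78.5 FPKM in the HBOT libraries, at 50, 68.5 and 52 FPKM in the CTX libraries, and at 90.7, 93.9 and 127 FPKM in the NC libraries. Both treated groups lay wholly below NC, and they overlapped each other. The mean was 55.5 ± 20.7 FPKM in HBOT and 56.8 ± 10.2 FPKM in CTX, against 104 ± 20.0 FPKM in NC (SD, n = 3 each). The log2 fold change was -0.86 for CTX against NC (SE 0.26, 95% interval -1.44 to -0.27, unadjusted p = 0.00919, adjusted p = 0.424 by limma) and -0.94 for HBOT against NC (SE 0.26, interval -1.52 to -0.35, unadjusted p = 0.00562, adjusted p = 0.295). These comparisons share the NC libraries. Neither passed an adjusted p of 0.05, and by p Igfbp4 ranked 287 of 13338 entries in the first and 252 in the second. Between HBOT and CTX the difference was -0.08 (SE 0.26, interval -0.67 to 0.50, adjusted p = 0.917), and it stood at 0.15 without HBOT replicate 2 and at 0.06 without CTX replicate 2.

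Genes of other cells also varied over these libraries, not always in the order of Igfbp4. In whole ovary, fewer cells of a type and less RNA per cell cannot be told apart. The corpus luteum list of 7 genes summed to between 720 and 3610 FPKM in HBOT and between 423 and 858 FPKM in CTX, against 2790 to 3370 FPKM in NC, with 0 of the 7 at 0 in any library. Of its 6 genes tested, 0 were higher and 6 lower in CTX against NC (median -1.39). In HBOT against NC 1 was higher and 5 lower (median -1.12), with 0 passing in either comparison. The list sum was highest in HBOT replicate 3 (3610) and lowest in CTX replicate 2 (423). Each was the library highest in Igfbp4 within its group, which was seen after the values were examined. The largest part of that sum in NC, HBOT replicate 3 and CTX replicate 1 was Akr1c18, an enzyme that breaks down progesterone. Akr1c18 was at 194, 418 and 2850 FPKM in HBOT, 289, 125 and 153 FPKM in CTX, and 2510, 2460 and 2130 FPKM in NC. In the other libraries the largest part was Sfrp4, at 438, 679 and 603 FPKM in HBOT, 172, 192 and 565 FPKM in CTX, and 642, 546 and 475 FPKM in NC. Of 8 stromal genes tested, 8 were lower in CTX than in NC (median log2 fold change -0.48, against 0.046 for all entries tested) and 0 passed by limma. In HBOT against NC 2 were higher and 6 lower (median -0.31, against -0.015), with 0 passing. Lum, a proteoglycan of collagen fibrils, was at 42.5 FPKM in CTX and 65.4 FPKM in NC. Markers of the oocyte and of macrophages were higher in the treated groups. In HBOT against NC 9 of 9 oocyte genes and 7 of 7 macrophage genes were higher (medians 0.91 and 0.44), and in CTX against NC 9 of 9 and 6 of 7 (medians 0.67 and 0.50), with 0 passing in either. Of 15 granulosa genes 9 were higher and 6 lower in HBOT against NC, and 11 higher and 4 lower in CTX against NC (medians 0.12 and 0.30). Of 10 theca genes 4 were higher and 6 lower in HBOT against NC, and 6 higher and 4 lower in CTX against NC (medians -0.34 and 0.24). In both lists 0 passed. Of all entries, 47.6% were higher in HBOT against NC and 59.5% in CTX against NC. The part of these cells in the Igfbp4 values, and in those of the other members, was not tested.

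Igfbp7 was higher in HBOT than in CTX, with 421, 380 and 478 FPKM in HBOT against 347, 307 and 368 FPKM in CTX. No HBOT library reached down to a CTX library. The NC libraries, at 371, 386 and 402 FPKM, were above every CTX library and overlapped HBOT. The fold changes were small: 0.32 for HBOT against CTX (SE 0.12, interval 0.06 to 0.58, unadjusted p = 0.0227, adjusted p = 0.710), 0.14 for HBOT against NC (SE 0.12, adjusted p = 0.625) and -0.18 for CTX against NC (SE 0.12, adjusted p = 0.785). In the same annotation the end of Igfbp7 overlaps that of Polr2b, a subunit of RNA polymerase II, on the opposite strand, so some reads there may belong to either. Polr2b was at 18.8 to 23.6 FPKM over the 9 libraries, far below Igfbp7. A list of 9 smooth muscle and pericyte genes summed to at most 554 FPKM in HBOT, against 415 FPKM in CTX and 424 FPKM in NC. The lowest HBOT library was inside the ranges of CTX and NC. In HBOT against CTX 6 of the 9 were higher and 3 lower (median 0.26), and of all entries 38.4% were higher. The 3 lower were Rgs5, Cspg4 and Notch3, at means of 7.28, 2.01 and 4.16 FPKM in HBOT and 8.47, 2.62 and 4.39 FPKM in CTX. Of 8 endothelial genes 3 were higher and 5 lower in the same comparison (median -0.01). The part of these cells in the Igfbp7 values was not tested.

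Igfbp2, a binding protein that can also bind integrins, was at 72.4, 77.2 and 56.5 FPKM in HBOT, at 70.3, 39.5 and 38.7 FPKM in CTX, and at 45.6, 42.0 and 52.9 FPKM in NC. HBOT did not overlap NC, and the CTX libraries divided: replicate 1 lay within the range of HBOT, while replicates 2 and 3 lay below every other library. CTX replicate 1 was also the library that held the fat transcripts, and the part of fat in its Igfbp2 value was not tested. The fold change was 0.54 for HBOT against NC (SE 0.23, interval 0.01 to 1.06, unadjusted p = 0.0463, adjusted p = 0.415) and 0.51 for HBOT against CTX (SE 0.23, interval -0.02 to 1.04, adjusted p = 0.710). With 1 library left out, the second ran between 0.36 without CTX replicate 3 and 0.79 without CTX replicate 1 (adjusted p = 0.295 there), and was 0.42 without HBOT replicate 2. For CTX against NC it was 0.03 (SE 0.23), and -0.25 without CTX replicate 1.

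Igfbp5 is a binding protein that also attaches to matrix and is the neighbour of Igfbp2 on chromosome 1. It varied widely between replicates in HBOT (SD 21.5 FPKM) and CTX (SD 32.9 FPKM), and less in NC (SD 4.59 FPKM). It was at 73.1, 89.7 and 47.0 FPKM in HBOT, at 100 (replicate 1), 67.7 and 34.3 FPKM in CTX, and at 55.5, 64.0 and 62.7 FPKM in NC. The highest and the lowest of the 9 libraries were both CTX libraries, and all 3 groups overlapped. The highest, CTX replicate 1, was the library that held the fat transcripts, and the part of fat in its value was not tested. The interval of the difference ran from -0.69 to 0.96 for HBOT against CTX and from -0.80 to 0.85 for CTX against NC. Changes within these intervals are not excluded.

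Igfbp6, which prefers IGF2 over IGF1, was at 50.2, 33.5 and 44.6 FPKM in HBOT, at 47.6, 59.6 and 34.7 FPKM in CTX, and at 53.6, 43.8 and 53.0 FPKM in NC. The groups overlapped in each pair, with fold changes of -0.13 for HBOT against CTX, -0.24 for HBOT against NC and -0.11 for CTX against NC (SE 0.21 each).

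Taking the 6 binding proteins as a pool, Igfbp7 made up 60.8% of their summed FPKM on average, from 55.6% to 68.7% in single libraries. The share of Igfbp4 was 8.19% ± 2.58 in HBOT and 10.1% ± 2.20 in CTX, against 15.7% ± 1.99 in NC (SD, n = 3 each). Single libraries were at 7.40%, 6.10% and 11.1% in HBOT, at 8.07%, 12.4% and 9.70% in CTX, and at 14.5%, 14.7% and 18.0% in NC. The treated libraries thus lay below the NC libraries, but the share is made from the same Igfbp4 values and is not a separate observation. The pool itself summed to 669 ± 40.6 FPKM in HBOT, 569 ± 44.3 FPKM in CTX and 657 ± 41.3 FPKM in NC. Shares of a pool add to a fixed whole, so a share shows unequal change and not which member differed.

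**Figure D2:**
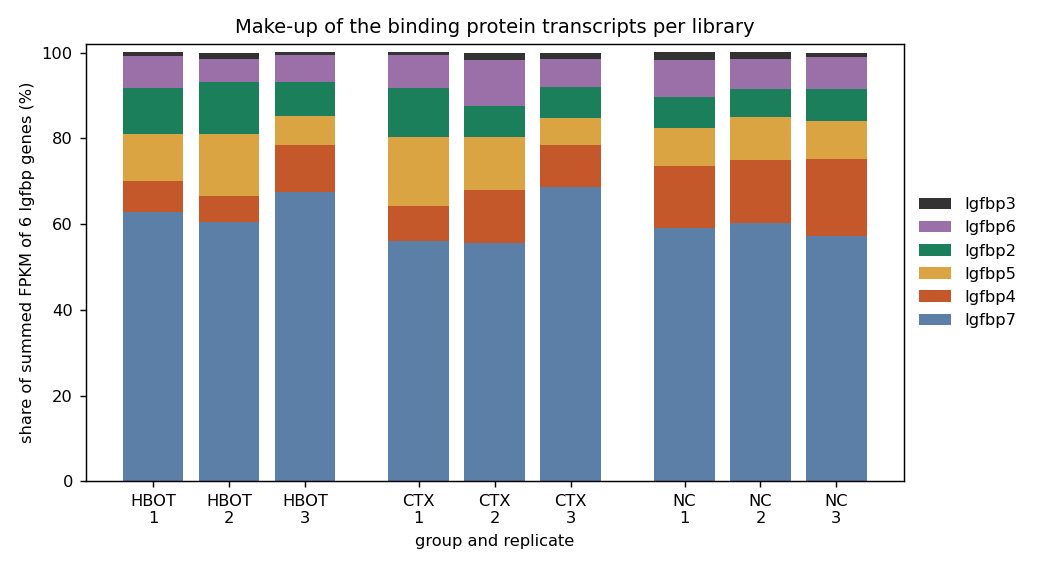
Share of each of 6 binding protein genes in their summed FPKM (y axis, percent) for each library (x axis, by group and replicate), stacked from Igfbp7 at the bottom to Igfbp3 at the top. Igfbp7 takes 55.6% to 68.7% of every bar, and the Igfbp4 band is wider in the NC bars, at 14.5% to 18.0%, than in the HBOT and CTX bars.

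Pappa, the protease of IGFBP4, was low and, by the ratio of its highest to its lowest library, the most variable of the 9 members, with 0.669, 5.81 and 0.264 FPKM in HBOT, 0.245, 1.64 and 1.48 FPKM in CTX, and 2.42, 1.72 and 0.231 FPKM in NC. Each group held libraries on either side of 1 FPKM. The highest value was 25.2 times the lowest, and HBOT replicate 2 was again at the top. The fold changes had a standard error of 0.65, with an interval from -1.64 to 1.31 for CTX against NC, so the 3 groups could not be told apart for this gene.

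Igfbp3, a high-affinity binding protein that is the main carrier in blood, had the profile nearest to that of Pappa among the 9 members. It was at 5.30, 9.32 and 4.35 FPKM in HBOT, at 3.93, 9.18 and 8.15 FPKM in CTX, and at 11.2, 10.3 and 6.47 FPKM in NC. The 4 libraries lowest in Igfbp3 (HBOT replicates 1 and 3, CTX replicate 1 and NC replicate 3) were also the 4 lowest in Pappa. This was seen after the values were examined, and it runs within the groups rather than between them. Igfbp3 differed by -0.52 for HBOT against NC (SE 0.34, adjusted p = 0.542), by -0.39 for CTX against NC (SE 0.34, adjusted p = 0.871) and by -0.13 for HBOT against CTX (SE 0.34, adjusted p = 0.897).

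**Figure D3:**
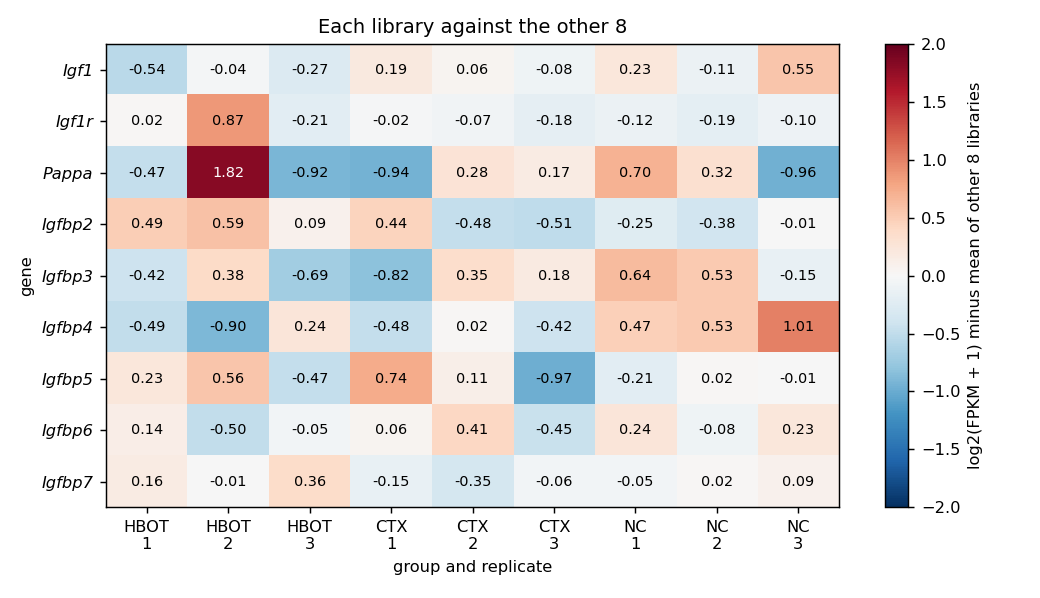
Difference of log2(FPKM + 1) of each library (columns, by group and replicate) from the mean of the other 8 libraries, for each member (rows), with blue below and red above 0. HBOT replicate 2 carries the extremes of Pappa (1.82) and Igf1r (0.87) and the lowest Igfbp4 (-0.90), and Pappa and Igfbp3 take the same sign in every library.

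Counted together, 0 of the 9 members passed an adjusted p of 0.05 in any comparison with limma, as did 0.0% of all entries in each. For CTX against NC, 1 member (Igfbp4, lower) had an unadjusted p under 0.05, against 7.98% of all entries, 5.24% higher and 2.74% lower. In the same comparison 2 members (Igfbp4 and Igfbp7, both lower) did not overlap between groups, against 21.0% of all entries, 13.2% higher and 7.8% lower. For HBOT against CTX, 1 member (Igfbp7, higher) had an unadjusted p under 0.05, against 6.09% of all entries, 2.41% higher and 3.67% lower. It was also the 1 member that did not overlap, against 10.2%, of which 3.76% were higher and 6.44% lower. For HBOT against NC, 3 members (Igfbp2 higher, Igf1 and Igfbp4 lower) had an unadjusted p under 0.05, against 11.9% of all entries, 6.22% higher and 5.65% lower. Here 2 members (Igfbp2 higher, Igfbp4 lower) did not overlap, against 20.5%, 10.9% higher and 9.6% lower. With 9 genes these counts do not set the members apart from all entries. The median fold change of the members was 0.13 for HBOT against CTX, 0.11 for HBOT against NC and -0.15 for CTX against NC, against -0.067, -0.015 and 0.046 for all entries.

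**Figure D4:**
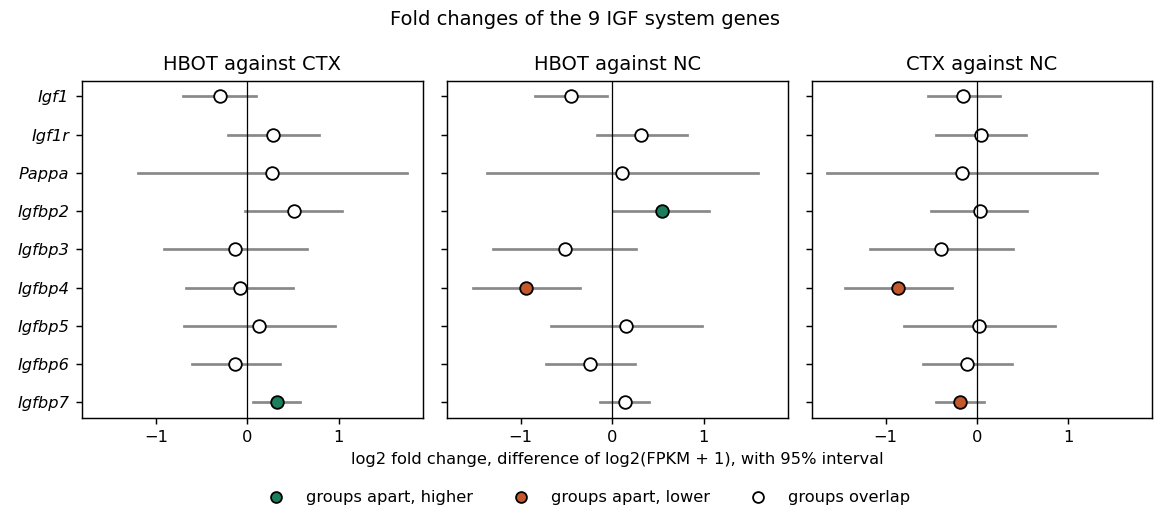
Log2 fold changes (x axis, difference of log2(FPKM + 1)) of the 9 members (y axis) in the 3 comparisons, with 95% intervals from limma as lines. Filled points mark genes whose libraries did not overlap between the groups, which are Igfbp7 in HBOT against CTX, Igfbp2 and Igfbp4 in HBOT against NC, and Igfbp4 and Igfbp7 in CTX against NC.

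Proteases and inhibitors that govern the binding proteins were read from a list of 14 genes, 10 of them tested, 0 passing in any comparison. For CTX against NC 1 was higher and 9 lower (median -0.48, against 0.046 for all entries), and 5 did not overlap, all lower, against 21.0% of all entries, 7.8% lower. For HBOT against CTX 7 were higher and 3 lower (median 0.31, against -0.067), with 4 higher and 1 lower without overlap, against 10.2% of all entries. For HBOT against NC 3 were higher and 7 lower (median -0.03, against -0.015), with 2 lower without overlap, against 20.5% of all entries. Of all entries, 59.5% were higher in CTX against NC, 38.4% in HBOT against CTX and 47.6% in HBOT against NC. Htra1, a secreted serine protease that cuts IGFBP5 among other substrates, was at 218, 260 and 296 FPKM in HBOT, at 244, 302 and 278 FPKM in CTX, and at 369, 379 and 410 FPKM in NC. Both treated groups lay below NC, with fold changes of -0.59 for HBOT (SE 0.13, unadjusted p = 0.00181, adjusted p = 0.245) and -0.49 for CTX (SE 0.13, unadjusted p = 0.00512, adjusted p = 0.373). Stc1, stanniocalcin-1, an inhibitor of pappalysin-1, was at 5.92, 9.30 and 9.33 FPKM in HBOT, at 10.1, 44.6 and 16.1 FPKM in CTX, and at 42.9, 43.9 and 26.6 FPKM in NC. HBOT lay below both other groups, at -2.07 against NC (SE 0.46, unadjusted p = 0.00171, adjusted p = 0.245) and -1.18 against CTX (SE 0.46, unadjusted p = 0.0318, adjusted p = 0.710). The difference from CTX was -0.61 (adjusted p = 0.860) without CTX replicate 2. Plat, tissue plasminogen activator, was higher in HBOT than in CTX, at 28.6, 86.0 and 27.5 FPKM against 15.9, 18.7 and 11.9 FPKM (1.36, SE 0.40, adjusted p = 0.710). Without HBOT replicate 2 this was 0.84 (adjusted p = 0.553). Adam9, a membrane metalloprotease, was at 11.7 FPKM in CTX and 16.0 FPKM in NC, without overlap (-0.42, SE 0.16, adjusted p = 0.567). Pappa2, the close relative of Pappa that cuts IGFBP3 and IGFBP5, was not tested, and reached 1.39 FPKM in HBOT replicate 2 against at most 0.717 FPKM elsewhere.

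Other ligands, receptors and signal carriers of the axis were read from a list of 21 genes, 15 of them tested, 0 passing. In HBOT against CTX and in HBOT against NC 7 were higher and 8 lower (medians -0.02 and -0.01), and in CTX against NC 5 were higher and 10 lower (median -0.03). Of all entries, 38.4%, 47.6% and 59.5% were higher in these comparisons, in that order. Pik3r1, the regulatory subunit of PI3K that docks on activated receptors, was at 58.0, 28.1 and 33.4 FPKM in HBOT, at 19.7, 22.3 and 16.4 FPKM in CTX, and at 36.5, 34.0 and 43.2 FPKM in NC. The CTX libraries lay below all others. The fold change was 0.94 for HBOT against CTX (SE 0.25, unadjusted p = 0.00456, adjusted p = 0.710) and -0.93 for CTX against NC (SE 0.25, unadjusted p = 0.00482, adjusted p = 0.367), 2 comparisons that share the CTX libraries. Igf2, the other ligand, was at 1.51 to 2.42 FPKM over the 9 libraries. Igf2r, which clears IGF2, was at 10.2 ± 1.85 FPKM in HBOT against 13.5 ± 1.98 FPKM in NC (-0.38, SE 0.15, adjusted p = 0.398). These groups overlapped, and the value was -0.29 without HBOT replicate 2 and -0.28 without NC replicate 3. Igf2bp2, an RNA-binding protein named for its binding of Igf2 mRNA, was at 6.79, 13.6 and 6.17 FPKM in HBOT and at 4.44, 4.29 and 3.92 FPKM in NC, without overlap (0.84, SE 0.28, adjusted p = 0.350, and 0.52 without HBOT replicate 2). In HBOT replicate 2, the adaptor Grb14, which inhibits receptor signalling, was at 41.0 FPKM against 124 to 184 FPKM in the other libraries, and the insulin receptor substrate Irs2 at 16.8 FPKM against 2.41 to 4.39 FPKM. Igfbp1 stayed at or under 0.229 FPKM and Igfals, the subunit of the blood complex of IGFBP3, at or under 0.509 FPKM.

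Genes with profiles most like each member were sought among 11498 tested genes with a mean of at least 2 FPKM. Likeness was the root mean square difference between profiles of log2(FPKM + 1) standardised to mean 0 and SD 1, taken as the larger of its values over all 9 libraries and over the 8 without HBOT replicate 2, so that 0 means the same shape. Nearest to Igfbp4 were Pde4a (0.262), a phosphodiesterase that breaks down cAMP, Il34 (0.308), a ligand of the CSF1 receptor, and Atp6v1a (0.316), a subunit of the vacuolar proton pump. Nearest to Igfbp7 were Fads3 (0.260), Sema3d (0.389) and Cpq (0.416), to Igfbp2 the corepressor Tle1 (0.262), Dennd5b (0.297) and the serine synthesis enzyme Psat1 (0.315), and to Igfbp5 Frmd4a (0.318), the heparan sulfatase Sulf1 (0.331) and Hmgn1 (0.336). Nearest to Igfbp3 were Lrrc59 (0.208), Cited4 (0.235) and Anxa11 (0.263), to Pappa Epm2aip1 (0.310), Atg3 (0.354) and the antizyme inhibitor Azin1 (0.364), and to Igf1r the histone chaperone Asf1a (0.359), Gxylt1 (0.425) and Sfr1 (0.459). Igf1 had no near match, its closest being Nat10 (0.509) and Tmem144 (0.537), and the closest to Igfbp6 were Bcas2 (0.349), the ceramide synthase Cers4 (0.395) and Hacd4 (0.419). Among the members, Igfbp3 and Pappa were the nearest pair (0.607) and Igfbp2 and Igfbp3 the farthest (1.79).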

How the data were processed

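The values are FPKM as the authors deposited them, in a single table of 22544 entries (21797 Ensembl genes and 747 assembled loci), each library in its own column. The labels' protocols name TRIzol extraction and oligo(dT) selection of polyadenylated RNA. The submitters' processing notes list fastp 0.23.4 and build GRCm39 (mm39); the aligner, counter and annotation were not given in the sources used here. Columns were assigned by the names in the sample descriptions, and 0 were unmatched.

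Entries at 1 FPKM or more in at least 3 libraries (13338) entered as log2(FPKM + 1). A model with a term for each of the 3 groups was estimated over the 9 libraries in limma 3.58.1 (R 4.3.3; eBayes with trend), with two-sided tests and Benjamini and Hochberg adjustment over all entries of a comparison. Summaries and figures used Python 3.11.15, numpy 2.4.6 and matplotlib 3.10.9. In simulated data of 13338 entries, the share of 100 genes with a log2 change of 1 that was found came to 62% for CTX against NC, 59% for HBOT against CTX and 61% for HBOT against NC, and to 90%, 86% and 90% at a change of 2. Both sizes were planted together, in genes with a mean log2(FPKM + 1) above 2, so none as low as Pappa. Residuals were drawn independently for each gene and library, so no library stood apart as HBOT replicate 2 does. These shares therefore need not hold for the members in the real data.

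The members and gene lists were chosen with earlier results of these data known. All members are named. Of each other list up to 4 genes with the smallest p in a comparison and a mean of at least 2 FPKM are named, and for each member the 3 genes of most similar profile, of which 1 is not reported here. Values of Igf2, Igfbp1, Igfals, Pappa2, Polr2b and Adipoq were added after they were seen. The processing was varied by pseudocount (0.1), by filter (none, or 5 FPKM), by scaling (TPM, median of ratios), by fitting 2 groups alone, by a block for replicate number, by library weights and by leaving out each library, which for the pathway genes named was added after seeing the data. The p-values set a difference against the spread between libraries only. That spread was estimated over the 3 groups together, HBOT replicate 2 included, and was moderated over all entries. No counting interval can be given.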

Additional observations from a re-analysis of the deposited data

How the results depend on the processing

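All 9 members stayed uncalled under every alternative run, 456 values in 27 results, of which 14 kept their direction throughout. They include Igfbp4 and Igfbp7 against NC in both treated groups. Igf1 stayed below 0 in all 3 comparisons, but in CTX against NC ran from -0.30 to -0.00091 with 1 library left out. Igfbp4 ran from -1.0 to -0.71 in CTX against NC (adjusted p 0.129 to 0.896) and from -1.22 to -0.71 in HBOT against NC (0.0778 to 0.651). The other 13 turned in 31 values. In CTX against NC, Igf1r was at -6.3e-05 with median of ratios scaling, Igfbp2 at -0.0097 with TPM, -0.02 with median of ratios and -0.07 with library weights, and Igfbp5 at -0.02, -0.02 and -0.04. Pappa was at -0.52 with library weights in HBOT against CTX and -0.73 in HBOT against NC. With 1 library left out, the ranges in CTX against NC were -0.25 to 0.17 for Igfbp2, -0.32 to 0.44 for Igfbp5, -0.29 to 0.09 for Igfbp6 and -0.60 to 0.18 for Pappa. In HBOT against CTX they were -0.005 to 0.48 for Igf1r, -0.46 to 0.07 for Igfbp3, -0.36 to 0.15 for Igfbp4, -0.28 to 0.48 for Igfbp5, -0.33 to 0.05 for Igfbp6 and -0.47 to 0.74 for Pappa, and in HBOT against NC -0.05 to 0.41 for Igfbp5 and -0.63 to 0.58 for Pappa. Pappa could not be tested under the filter of 5 FPKM.

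Of all entries 0 were called in each comparison. An unadjusted p under 0.05 with limma was found for 1065 in CTX against NC, for 812 in HBOT against CTX and for 1584 in HBOT against NC. The first was 2092 without HBOT replicate 2, 698 without CTX replicate 1 and 627 without NC replicate 2. The second was 478 without CTX replicate 2, 486 without CTX replicate 3, 1293 without HBOT replicate 1 and 1556 without HBOT replicate 3, and the third 878 without NC replicate 1 and 902 without NC replicate 2. With library weights the 3 counts were 2274, 1372 and 3174, and in the 2 groups alone the first was 1843 and the second 448. In CTX against NC 31 were called in the 2 groups alone, 123 with library weights and 0 to 9 with 1 library left out. In HBOT against CTX 1 was called with no filter, 5 with library weights and 0 to 1 with 1 library left out. In HBOT against NC 1 was called with no filter, 181 with library weights and 0 to 3 with 1 library left out. With the replicate number as a block 0 were called in each comparison. No label says that the numbers pair the libraries. The correlation of deviations of same-numbered libraries ran from -0.287 to 0.156, which cannot exclude a pairing, since single libraries that stand apart weigh on it. The cause of these differences was not tested.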

Other observations

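Genes of growth hormone signalling, which drives Igf1 in liver, were read from a list of 9, all tested and 0 passing with limma in any comparison. In HBOT against NC 1 had an unadjusted p under 0.05, against 11.9% of all entries. In that comparison 6 were higher, against 47.6% of all entries, and 3 lower (median 0.23, against -0.015 for all entries). Of these, 2 higher and 1 lower did not overlap, against 20.5% of all entries. Stat5b, the transcription factor that carries the growth hormone signal, was at 21.9, 11.2 and 19.4 FPKM in HBOT and at 29.1, 34.3 and 23.1 FPKM in NC. The groups did not overlap (log2 fold change -0.72, SE 0.27, unadjusted p = 0.0268, adjusted p = 0.382), and the value was -0.45 (adjusted p = 0.425) without HBOT replicate 2. The receptor Ghr was at 17.4 ± 5.26 FPKM in HBOT and 14.7 ± 5.14 FPKM in CTX, and Socs2, a feedback inhibitor, at 167 ± 34.4 FPKM in HBOT and 136 ± 41.0 FPKM in CTX (SD, n = 3 each), differences within the spread between libraries. Cish, another feedback inhibitor and target of STAT5, was at 7.90, 20.2 and 12.0 FPKM in HBOT, at 4.17, 30.4 and 29.8 FPKM in CTX, and at 54.5, 50.8 and 5.03 FPKM in NC. Its 4 lowest libraries were the 4 lowest in Pappa and Igfbp3, a pattern seen after the values were examined.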
